A study of Homo sapiens with 8 samples.

Results

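The STAT5A and STAT5B genes lie head to head on chromosome 17, and the peaks of 2 steroid receptors over them, the glucocorticoid receptor (GR) and that for progesterone (PR), were taken from ChIP-seq of T47D breast cancer cells. ChIP-seq recovers DNA fragments held by a protein with an antibody and sequences them, and a peak is a stretch where such fragments pile up. Every peak that overlapped positions 40301186 to 40513961 of chromosome 17 (hg19) was a member. That window holds STAT5B (40351186 to 40428725), STAT5A (40439565 to 40463961) and 50 kb on either side. It held 16 of the 94404 peaks deposited in the 8 lists of the series. T47D cells are an established line from human breast cancer. Of the lines used, T47D A1/2 (A1-2 below) expresses both receptors according to the series, and T47D MTVL WT served as control according to the labels. All cells were grown in hormone-stripped serum and then starved of serum. They were left untreated or given dexamethasone (Dex, a synthetic glucocorticoid) or R5020 (a synthetic progestin), each at 10 nM for 60 min. For GR, a mix of 2 antibodies was used on A1-2 cells that were untreated, Dex-treated or R5020-treated. For PR, 1 antibody was used on untreated and R5020-treated cells of both lines, and input DNA of A1-2 cells made the last library. With 1 library for every condition there is no spread between replicates, and no test was made. The read depth was unknown, and a peak that was not called may be present below the threshold.

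STAT5A and STAT5B encode closely related transcription factors that wait in the cytoplasm until a Janus kinase, JAK2 at the prolactin and growth hormone receptors, phosphorylates them. They then pair, enter the nucleus and bind gamma-interferon-activated sites. In the mammary gland STAT5A carries the prolactin signal that builds alveoli and turns on milk protein genes, while STAT5B is best known for growth hormone signalling in liver. GR and PR are steroid receptors that bind DNA as dimers once their hormone is present. GR is also known as a partner of the STAT5 proteins at milk protein genes, and the genes for STAT5 are themselves of interest as receptor targets. The question of the series, by its title, is how GR affects PR-dependent regulation, and at this locus it becomes a question of which sites the receptors share.

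The genes are read away from each other, STAT5B on the minus strand and STAT5A on the plus strand, with 10.8 kb between the hg19 starts that define the window. The sequences just before a start of each gene are shown because the nearest receptor peaks stood kilobases away from the starts, not at them. They come from RefSeq on GRCh38.p14, 250 bases up to the start on the gene's own strand. The printed starts lie farther apart than the hg19 starts, so they may not both be the hg19 ones. Positions were not matched between the builds. The STAT5B stretch is chr17:42276392-42276641 on the minus strand and the STAT5A stretch is chr17:42287189-42287438 on the plus strand. Capitals mark AGAACA, a block of the palindromic receptor element, searched on both strands together with the full glucocorticoid response element and the STAT element TTCNNNGAA.
STAT5B: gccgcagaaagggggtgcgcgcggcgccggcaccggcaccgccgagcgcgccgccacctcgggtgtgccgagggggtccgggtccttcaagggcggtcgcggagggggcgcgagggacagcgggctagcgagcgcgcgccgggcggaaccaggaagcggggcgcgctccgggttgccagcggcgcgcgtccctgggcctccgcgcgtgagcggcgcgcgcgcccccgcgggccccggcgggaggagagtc
STAT5A: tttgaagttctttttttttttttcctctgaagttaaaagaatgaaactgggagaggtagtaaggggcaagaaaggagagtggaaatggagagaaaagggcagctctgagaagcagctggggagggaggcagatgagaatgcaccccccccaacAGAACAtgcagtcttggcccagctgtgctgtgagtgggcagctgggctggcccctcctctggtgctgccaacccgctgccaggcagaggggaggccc

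The STAT5B stretch is rich in G and C (82.0%, more than 98.3% of 35116 RefSeq promoters of that length), whereas this STAT5A stretch has 54.8%, below their median of 58.0%. It has 1 AGAACA, beginning 97 bases before the start, and the STAT5B stretch has none. AGAACA was found in 12.4% of all such promoters, the STAT element in 6.57% and the full response element, which contains AGAACA, in 0.00285%, and the printed stretches hold neither of the last 2. RefSeq lists 2 further starts of STAT5A. The stretch before the second (65.6% G and C) overlaps the printed one and holds the same AGAACA. That before the third (74.4% G and C) holds none of the 3 motifs. Both are above the median of 58.0%, so the lower share of STAT5A belongs to the printed start only.

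Among the 7 receptor libraries, peaks were called at the locus in the 3 of hormone-treated cells that had long lists. The GR list after Dex held 3 peaks, the PR list of A1-2 cells after R5020 held 5, and the PR list of MTVL WT cells after R5020 held 7. The order of the lines turned with lists of equal length. With each list held to its 18415 highest-scoring peaks, the A1-2 PR list still held 5 and the MTVL WT list held 3. The lowest scores kept were then 174.49 in A1-2 and 393.58 in MTVL WT cells. The MTVL WT peaks that scored 102.97 to 233.58 fell below their cut, while every A1-2 PR peak (lowest 180.09) stayed above its own. Why the scores of the lists differ was not tested. The 3 untreated lists and the GR list after R5020 held 0. These 15 receptor peaks fell on 7 sites, each made of peaks that overlap by at least 1 bp and numbered here along the chromosome. Sites 2, 3 and 5 were called in all 3 lists, sites 1 and 4 in the PR lists of both lines, and sites 6 and 7 in MTVL WT cells alone. The input list held 1 peak, from 40345196 to 40346958 (score 137.51), 4.2 kb beyond the end of STAT5B and 21.9 kb from the nearest receptor peak, and no receptor peak of the window touched it.

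**Figure D1:**
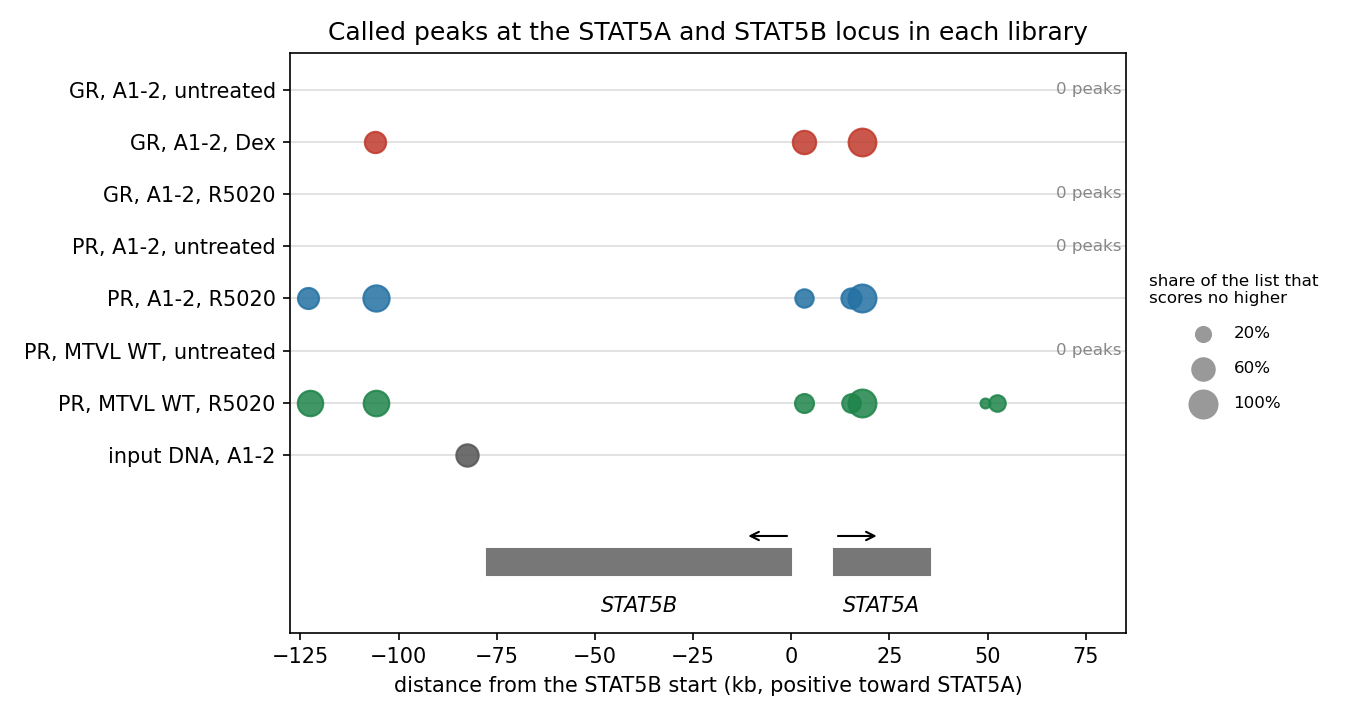
Called peaks of each of the 8 libraries (rows) by distance from the STAT5B start in kb, positive toward STAT5A. Dot area grows with the share of the library's own list that scores no higher, gene bodies are grey bars and arrows give the direction of transcription. The 15 receptor peaks stand on either side of STAT5B, in STAT5A and beyond the end of STAT5A, and 4 lists have 0 peaks.

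The strongest site of the locus lay inside STAT5A, 7.1 kb downstream of its start, and both receptors were called there. This is site 5, from 40446204 to 40447150. Its deposited score, the authors' own value for a peak (read as a scaled -log10 p from MACS), was 3100 for PR in A1-2 cells, 3100 for PR in MTVL WT cells and 2098.24 for GR after Dex. Scores rank peaks within a list and are not compared between libraries. The PR peak of A1-2 cells was tied with 601 peaks in all at 3100, with 58 above them, and that of MTVL WT cells with 1858, with 163 above them. At that ceiling the score no longer separates sites. The GR peak ranked 240 of 18415 after Dex, within the top 1.30% of its list. The peaks of the 3 lists were nearly concentric, with midpoints 4.5 bp apart between the PR peaks and at most 29.5 bp between GR and PR.

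A GR peak at a PR site of that strength is the rule in these data, and its GR score was on the high side. Of 569 merged regions with a PR score of 3100 or more in both lines, 99.8% also had a GR Dex peak. The GR scores there had a median of 1309.55 (quartiles 773.49 and 2031.02), and site 5 stood above 75.9% of them. No GR peak was called at site 5 after R5020 or without hormone. In the same highest decile of the GR Dex list, 8.47% of peaks had a GR R5020 peak and 2.39% an untreated GR peak (3.19% and 1.19% over the whole list), so their absence at site 5 is the usual state.

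A weaker PR site stood next to it in the same gene. Site 4, from 40443691 to 40444350, lay 4.5 kb downstream of the STAT5A start. Its score was 220.43 in A1-2 cells and 220.17 in MTVL WT cells, and no GR peak was called there. Both values were below the median of their list, which was 244.07 in A1-2 and 312.87 in MTVL WT cells. Between the peaks of sites 4 and 5 there were 1920 bp in the A1-2 list and 1853 bp in the MTVL WT list. Neighbours that close or closer made up 12.1% of all gaps in the A1-2 list. Whether sites 4 and 5 are exonic or intronic was not analysed here, since no hg19 annotation was used.

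Between the gene starts, all 3 lists had a peak at site 3, from 40431644 to 40432336. It lay 3.3 kb upstream of the STAT5B start and 7.6 kb upstream of that of STAT5A. The GR Dex peak scored 276.38, the PR peak of A1-2 cells 180.09 and that of MTVL WT cells 233.58. GR was above the median of its list (192.57), and both PR peaks were below theirs. Of the 5 PR peaks of A1-2 cells at the locus this was the weakest, yet it had a GR Dex peak, while the PR peaks of sites 1 and 4, which scored higher, had none. Among A1-2 PR peaks of the same score decile that had a GR partner, 79.3% had one with a lower score than that of site 3, whose partners' median was 165.83. No peak edge came nearer than 2.9 kb to the STAT5B start or 4.1 kb to the STAT5A start.

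**Figure D2:**
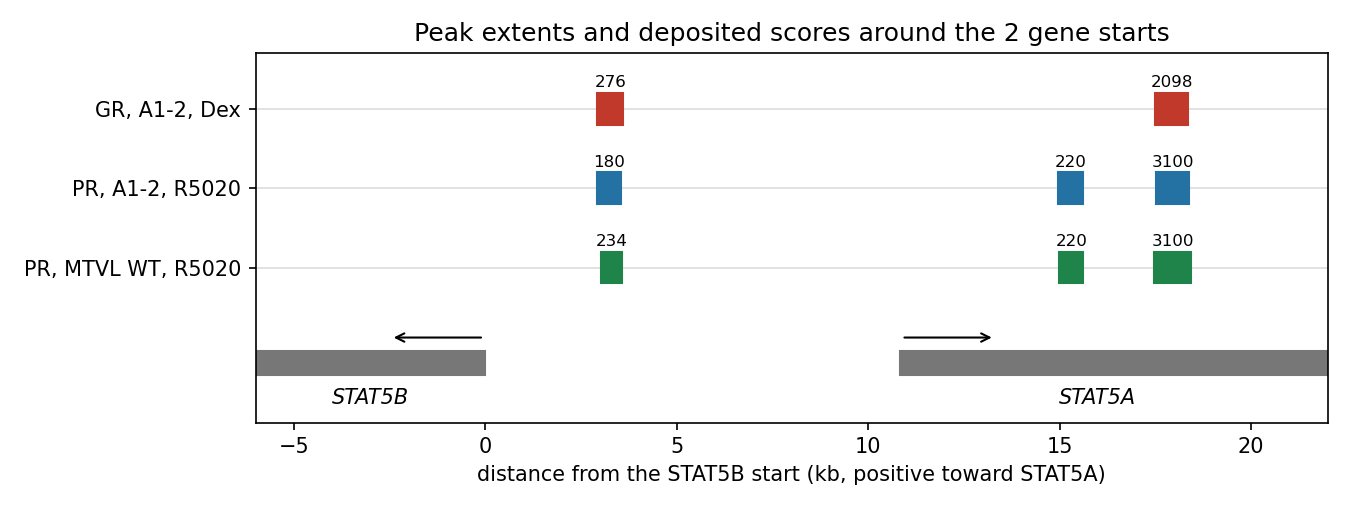
Peak extents (coloured boxes, to scale) of the 3 lists with peaks around the gene starts, by distance from the STAT5B start in kb, with the deposited score above each box. GR and PR peaks coincide at 276, 180 and 234 between the genes and at 2098, 3100 and 3100 in STAT5A, and the PR peaks at 220 have no GR peak.

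The body of STAT5B, 77.5 kb long, held 0 peaks in every receptor list. The stretch without a peak reached from site 2 to site 3, which was 108.5 kb in the GR Dex list, 108.4 kb in the A1-2 PR list and 108.5 kb in the MTVL WT PR list. Gaps at least that long made up 31.3%, 23.3% and 15.9% of the gaps in those lists. When the genome was cut into tiles of the length of STAT5B, 73.3%, 63.8% and 50.9% of the tiles had no peak in the same lists, so an empty stretch of that size is common. STAT5A, 24.4 kb long, held 1 GR Dex peak, 2 A1-2 PR peaks and 2 MTVL WT PR peaks. Tiles of its length, which were not matched for gene content, held at least as many in 11.4%, 4.60% and 7.66% of cases.

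Beyond the end of STAT5B, on the side where RefSeq places GHDC as the next protein-coding gene, were sites 1 and 2. RefSeq lists HCRT, KCNH4 and RAB5C beyond GHDC on that side. Sites 1 and 2 were not placed against any of these genes, so a nearer gene start may exist. Both sites had similar PR scores in MTVL WT cells and unlike ones in A1-2 cells. Site 2, from 40322471 to 40323279, lay 28.3 kb beyond the end of the gene. It scored 1041.45 for PR in A1-2 cells, 1149.04 for PR in MTVL WT cells and 202.84 for GR after Dex. Its PR peak ranked 3707 of 28262 in A1-2 cells and 7770 of 43070 in MTVL WT cells. PR was thus in the second-highest decile of both lists, and GR was near the middle of its own. The GR score was higher than that of 29.8% of the GR partners of A1-2 PR peaks in that decile, whose median was 297.47.

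Site 1, from 40305341 to 40307182, lay 44.9 kb beyond the end of STAT5B and had PR in both lines and no GR peak. Its PR peak scored 1081.36 in MTVL WT cells and 254.57 in A1-2 cells. MTVL WT PR peaks of that decile that were found in A1-2 cells had partners there with a median score of 516.35 (quartiles 289.89 and 883.66), and 20.4% of them scored lower than the partner of site 1. For site 2, in the same decile, 81.4% scored lower. The MTVL WT peak of site 1 was also wide. It spanned 1842 bp against 837 bp in A1-2 cells, wider than 99.0% of its list, and the midpoints were 489.5 bp apart, against a median of 38.0 bp between overlapping PR peaks of the lines. The A1-2 peak covered only the part of it nearest to the window's edge.

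Beyond the end of STAT5A, on the side where RefSeq places STAT3 as the next protein-coding gene, only weak PR peaks of MTVL WT cells were called. Whether these peaks lie within STAT3 was not examined, as no hg19 annotation was used. Site 6 (40477789 to 40478353) scored 102.97 and site 7 (40480909 to 40481580) scored 172.31, and they lay 14.1 and 17.3 kb beyond the gene's end. Of the MTVL WT list 1.73% and 27.3% scored lower. No peak of A1-2 cells was called at either, and there was no input library of MTVL WT cells to compare them with.

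**Figure D3:**
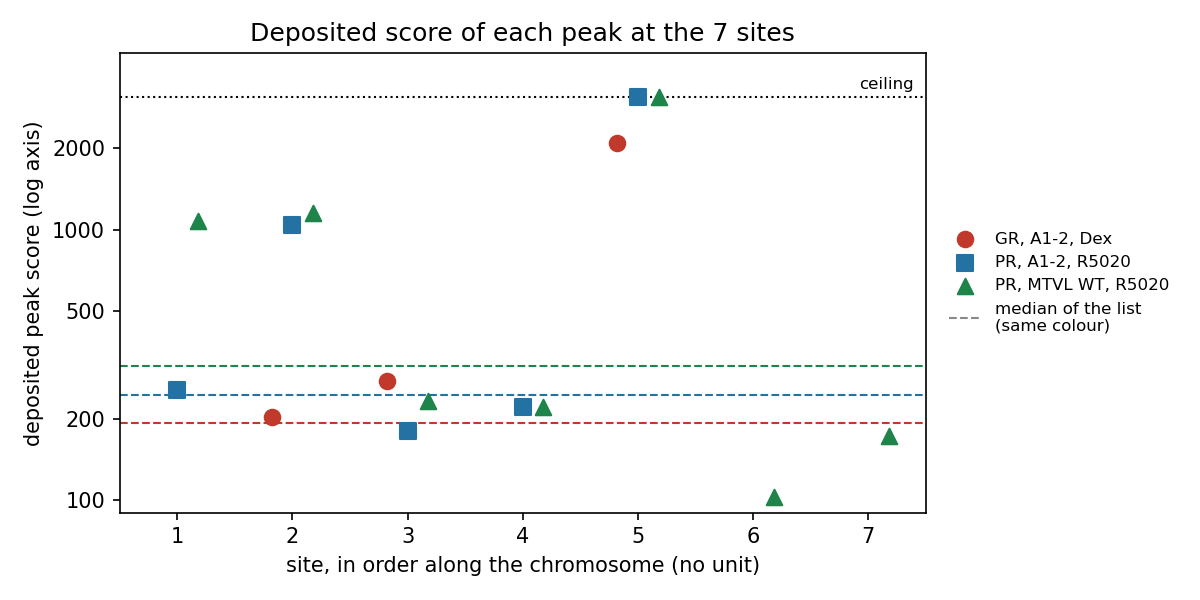
Deposited score (log axis) of each peak at the 7 sites in order along the chromosome, with 1 symbol per library, dashed lines at the median of each list and a dotted line at the ceiling of 3100. Site 5 stands far above the list medians in all 3 lists, whereas sites 3, 4, 6 and 7 have PR scores below them.

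PR after R5020 was compared between the lines, since MTVL WT is the control for A1-2. Of the 7 MTVL WT PR peaks 5 were found in A1-2 cells (71.4%, exact 95% interval 29.0 to 96.3), against 53.8% of the whole MTVL WT list and 49.4% of its 1550 peaks on chromosome 17. Of the 5 A1-2 PR peaks all were found in MTVL WT cells (interval 47.8% to 100%), against 82.7% of the whole A1-2 list and 91.4% of its 846 peaks on chromosome 17. With lists of equal length, 3 of the 5 A1-2 PR peaks (60.0%) were found in MTVL WT cells, and all 3 MTVL WT PR peaks that remained were found in A1-2 cells. Intervals cover counting error over peaks only, as if the peaks were independent draws, and say nothing of the spread between libraries. Both include the share of the whole list, which with so few peaks is no test. The score went along with which peaks were shared. The PR peaks of sites 6 and 7 fell in deciles where 18.9% and 29.3% of MTVL WT peaks were found in A1-2 cells. Those of sites 3 and 4 fell in a decile with 36.7%, those of sites 1 and 2 in a decile with 89.2%, and that of site 5 in the highest, with 97.6%.

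GR after Dex and PR after R5020 were compared in A1-2 cells, where the agent differed along with the receptor. Of the 5 PR peaks 3 lay at a GR Dex peak (60.0%, interval 14.7 to 94.7), against 48.2% of the whole A1-2 PR list. All 3 GR Dex peaks lay at a PR peak of A1-2 cells (interval 29.2% to 100%), against 73.8% of the whole list, and all 3 lay at a PR peak of MTVL WT cells, against 69.3%. No site had GR alone. Among A1-2 PR peaks, 32.0% of the decile of site 3, 37.8% of that of site 4 and 44.8% of that of site 1 had a GR Dex peak, and of these sites only site 3 did. The shares were 80.0% and 95.6% in the deciles of sites 2 and 5, both of which had a GR peak.

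**Figure D4:**
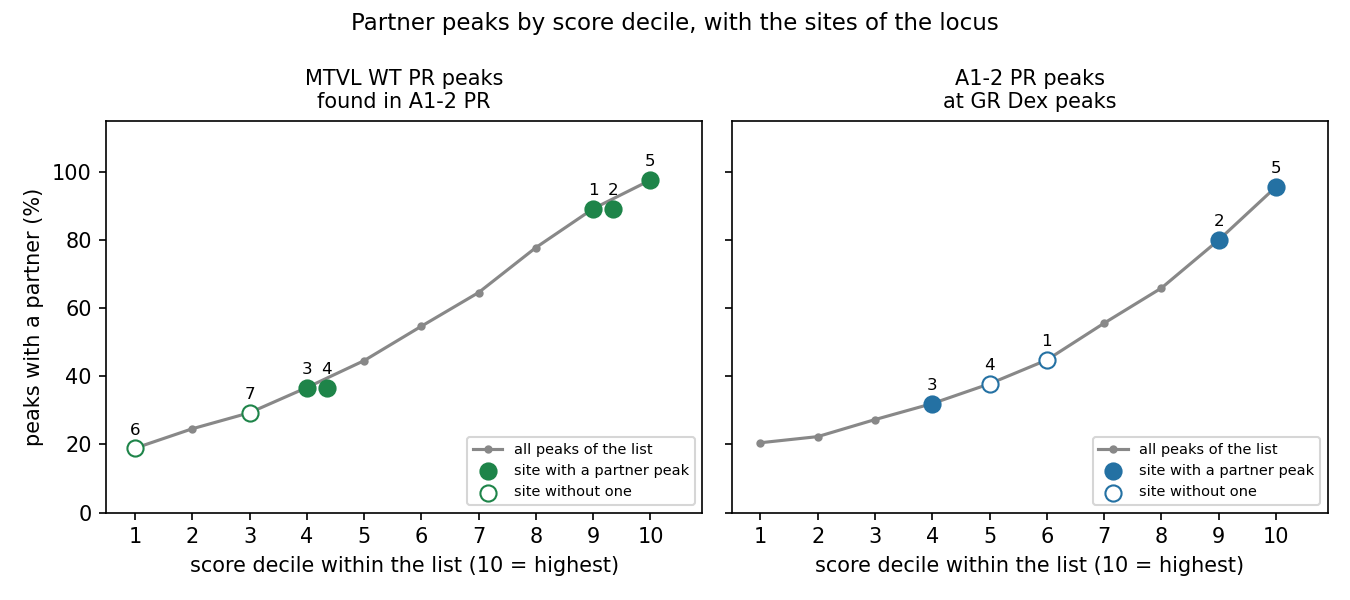
Share of peaks with a partner peak (%) by score decile within the list, for MTVL WT PR peaks found in A1-2 PR (left) and A1-2 PR peaks at GR Dex peaks (right). The line is the whole list, and numbered circles put each site at its decile, filled where a partner was called and moved sideways where sites share a decile. The 2 sites without an A1-2 PR peak are in the lowest deciles held by the locus, and of the 3 lower A1-2 PR sites only site 3 has a GR peak.

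Over the merged regions of the 3 lists, the 7 sites covered 3 of the 7 possible combinations. The combination of GR with PR in both lines had 3 sites and is 22.4% of 51444 regions in all. PR in both lines without GR had 2 sites and is also 22.4% of all regions. PR in MTVL WT cells alone had 2 sites and is 36.5%. The other combinations had 0 sites, namely GR alone (7.23% of all regions), GR with A1-2 PR (3.65%), GR with MTVL WT PR (2.12%) and A1-2 PR alone (5.69%). With 7 sites, no difference from these shares was tested.

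The locus, 212.8 kb long, held more peaks of each long list than most stretches of its length. These stretches were tiles along whole chromosomes, with or without genes, and were not matched to the locus. Of the tiles 51.4% held no GR Dex peak, 39.8% no A1-2 PR peak and 27.5% no MTVL WT PR peak. Tiles of that length held at least 3 GR Dex peaks in 17.4% of 14244 cases, at least 5 A1-2 PR peaks in 13.9% and at least 7 MTVL WT PR peaks in 13.7%. All 3 numbers were reached together in 7.62% of tiles. On chromosome 17 the shares were 20.5%, 15.7% and 23.9% of 381 tiles. The 0 peaks of the short lists say little about the locus, since 4.23% of tiles had a GR R5020 peak, and 1.19%, 1.83% and 1.33% had an untreated peak of GR in A1-2, PR in A1-2 and PR in MTVL WT cells. An input peak was called in 7.15% of tiles.

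**Figure D5:**
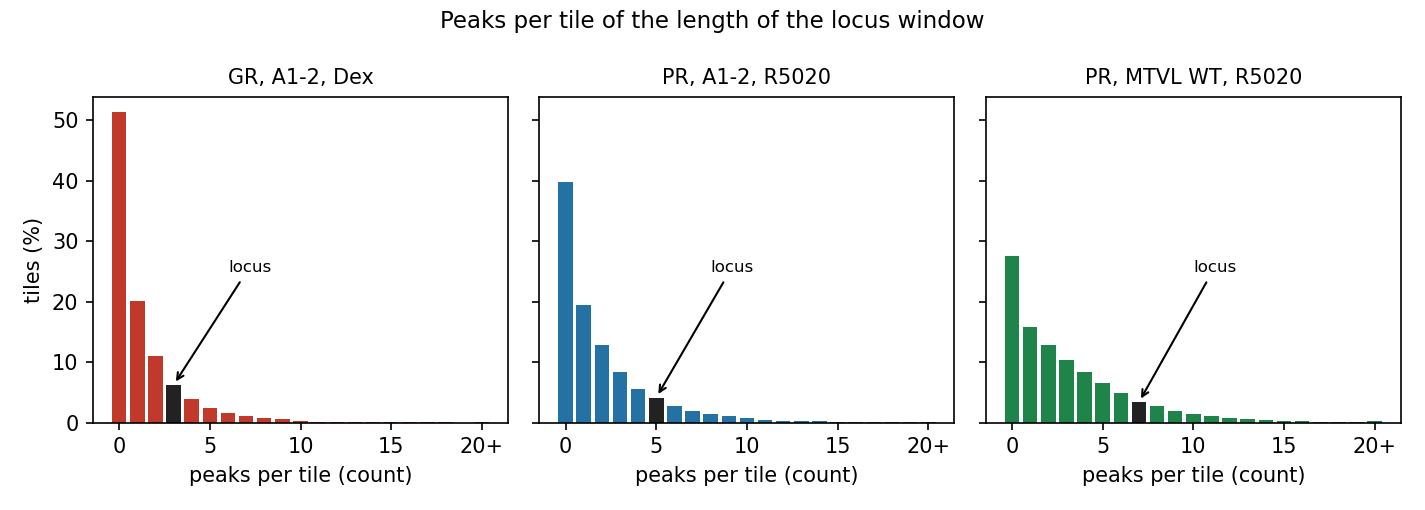
Share of tiles (%) by the number of peaks they hold, for tiles of the length of the locus window (212.8 kb) along chromosomes 1 to 22 and X, with 20 or more pooled in the last bar. The black bar marks the number at the locus (3, 5 and 7), which lies right of the most common numbers in each list.

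At the edges of the window, the first PR peaks inside stood 4.2 kb from the edge beyond STAT5B, with scores of 254.57 (A1-2) and 1081.36 (MTVL WT). The nearest outside stood 14.9 kb away, with scores of 683.35 and 1710.26. On the other side the last MTVL WT peak inside was site 7 and the first outside scored 132.22, 5.9 kb beyond the edge. The nearest GR Dex peaks outside the window lay 221.0 kb and 184.9 kb from its edges, which left gaps of 242.4 kb and 251.8 kb to the outermost GR Dex peaks inside. Gaps at least that long made up 16.5% and 15.9% of all gaps in the GR Dex list.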

How the data were processed

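Reads were processed by the authors with Bowtie 1.1.1, bedtools and MACS 1.4.2 on hg19, per the submitters' processing notes, which give no settings, control library or depth here. Each deposited file holds the peaks of 1 library (8 in all) with the authors' score. It is at least 100 in every list, and its reading as a scaled -log10 p rests on that and on the 1e-10 in the deposited names.

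Only chromosomes 1 to 22 and X were used, and positions count from 1. Receptor peaks that touched an input peak were dropped, which removed 0 at the locus. An overlap of 1 bp made peaks shared. Intervals of shares are 95% Clopper-Pearson intervals. Score deciles and tiles used whole lists, and a peak on a tile border counts in both tiles. Tiles of every length ran along whole chromosomes and were not matched for gene content. The overlap step was tested on simulated data.

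Full values were planned for sites within 5 kb of a start, the 3 strongest peaks of each list, and sites of 1 line or receptor scoring at least 200. Sites 6 and 7 were named after their values were seen. The members and lists were chosen with earlier results of these data known. Pathway genes were not placed, and peak sequences were not read, as no hg19 genome or annotation was used. Computations used Python 3.11.15, numpy 2.4.6, scipy 1.17.1 and matplotlib 3.10.9.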

Additional observations from a re-analysis of the deposited data

How the results depend on the processing

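Alternatives were a score of at least 200, input peaks kept, 25 or 100 kb flanks, lists of equal length (18415 peaks), an overlap of 50% of the shorter peak, midpoints within 200 bp, peaks joined over 500 bp, and shifted tiles. In all 69 values of 15 results were recomputed. Of these, 65 differed from the reported value by no more than its 95% interval allows (for counts, by no more than 1.5 times), and 4 differed by more. The 65 are no measure of stability, since some could not differ. Neither a higher score cut nor equal length can add peaks to a list that held 0, and the GR Dex list already had 18415. Keeping peaks at input peaks could not change the counts, as 0 had been dropped at the locus. The intervals of the shares were also wide, and a fall from 100% to 60.0% was within 1 of them (47.8% to 100%). With 25 kb flanks the A1-2 PR list held 3 peaks, and with 100 kb flanks the MTVL WT list held 11. With lists of equal length the MTVL WT list held 3 peaks, those scoring at least 393.58, and 100% of them were found in A1-2 cells, while 60.0% of the 5 A1-2 PR peaks were then found in MTVL WT cells. With a score of at least 200 the A1-2 PR peak of site 3 was left out, and 2 of 3 GR Dex peaks lay at a PR peak. With midpoints within 200 bp the peaks of site 1 no longer matched, which made 8 sites. No paired analysis was possible because each condition had 1 library, and no library could be left out.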

Other observations

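A long stretch without a PR peak of A1-2 cells began at the end of site 5, and it was looked at only after the peaks had been seen. It ran from 40447117 to 40738812 (291.7 kb), over the end of STAT5A and beyond the window. RefSeq lists STAT3, CAVIN1 and further genes on that side, and none of these was placed in the stretch. The PR list of MTVL WT cells had 8 peaks in it, 2 of them sites 6 and 7, with scores from 102.50 to 272.92 and a median of 134.81, and the GR Dex list had 1. That is 27.4 MTVL WT PR peaks per Mb, against a median of 3.95 per Mb over the 2274 A1-2 PR gaps of at least that length. Of these gaps 9 (0.396%) were as dense or denser, and on chromosome 17 only this 1 of 51 was. The stretch was picked with the same MTVL WT peaks in view, so its place among the gaps is a description and no test. In the score decile that holds the median of 134.81, 24.6% of all MTVL WT PR peaks were found in A1-2 cells. The length of the stretch depends on the treatment of input peaks. An A1-2 PR peak from 40705135 to 40706723 (score 743.74) overlapped an input peak, and with such peaks kept the stretch was 258.0 kb long, had 8 MTVL WT PR peaks (highest score 1458.49), and 0.229% of 2623 gaps were as dense or denser. All 8 peaks scored below the median of the MTVL WT list (312.87) where peaks at input peaks were left out. Copy number of the region in either line was not analysed here.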
